A study of Mus musculus with 13 samples.

Results

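The telomeric HoxD landscape is the stretch of mouse chromosome 2 that runs from inside the HoxD cluster past Hoxd1 to beyond Agps. It was set as 1.23 Mb of mm10 that begin 43.0 kb before the Hoxd1 start (74762980) and end 18.6 kb past the Agps end (75931350). Members were every CTCF, RAD21 or SMC1 peak wholly inside it in any of 11 peak lists. Overlapping peaks were merged into 1 site across the lists. This gave 59 sites of 105994 in the whole series. The genes chosen for the stretch, from GENCODE M21, were Hoxd1, Mtx2, Hnrnpa3, Nfe2l2 and Agps, and the starts of all 5 lie inside it. Other genes, coding and non-coding, also start there. Each site is named by the distance of its summit from the Hoxd1 start in kb, so that site 202 lies 202 kb telomeric to that start.

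Hoxd1 encodes a homeobox transcription factor at the telomeric end of the cluster. Mtx2 encodes metaxin, a protein of the mitochondrial outer membrane. Hnrnpa3 encodes an RNA-binding protein of nuclear ribonucleoprotein particles, Nfe2l2 a transcription factor of the response to oxidative stress, and Agps a peroxisomal enzyme of ether lipid synthesis. The telomeric landscape is a regulatory domain known to hold enhancers of Hoxd genes for the early and proximal limb. CTCF, a zinc-finger protein, recognises an asymmetric motif and can halt the cohesin ring as it extrudes a chromatin loop. RAD21 and SMC1 are subunits of that ring. Loop anchors are known to lie mostly at motifs that point towards each other, so motif direction is given with each site.

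All tissue was from limbs at E12.5. The wild-type CD1 lists were CTCF in distal and in proximal forelimb, and RAD21 and SMC1 in distal forelimb. The wild-type B6CBAF1 lists were CTCF and RAD21 in forelimbs and hindlimbs taken whole, called whole-limb here. The 4 mutant CTCF lists came from embryos homozygous for the allele del(8-13)d11lac, the allele del(8-13)rXII, the allele del(1-13)d9lac or, last, del(attP-Rel5)d9lac, all on B6CBAF1. Values of the 4 alleles are given in this order. These embryos came from crosses of heterozygotes. By name, del(8-13) removes Hoxd8 to Hoxd13 and del(1-13) removes Hoxd1 to Hoxd13, and the breakpoints are not given in the sources used here. Whole limbs were used for the alleles, except that CTCF in del(8-13)rXII came from forelimbs of 4 embryos and by ChIPmentation, in which a transposase tags the bound chromatin. RAD21 in del(8-13)rXII came from whole limbs and was sequenced 2 times. CTCF samples had the shorter of 2 fixation times and SMC1 the longer, and which of them each RAD21 sample had is not given. The series also has 2 H3K27ac samples, not analysed here.

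With 1 library per group, no difference between lists had a replicate check and no test was possible. Library, strain, assay and genotype cannot be told apart where they differ together. Read depth is unknown, so the absence of a peak says no more than that the authors' calling found none. The shortest list had 15927 peaks (RAD21 of the allele del(8-13)rXII) and the longest 73682 (proximal CTCF). Strength is the authors' −log10 q of the summit, whose lowest value in every list was about 1.3. Since it grows with depth, it is compared between sites of 1 list, and across lists only by rank. The 95% intervals are Wilson's and cover counting error alone.

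Of the 18 sites with a CTCF peak in all 7 lists, 16 had a CTCF motif within 50 bp of the whole-limb summit. The motif matrix of 19 bp was learned from the strongest whole-limb peaks outside the stretch. The sequences below, read from GRCm38.p6 of RefSeq, show the matched 19 bases in capitals with 5 flanking bases on each side. They are shown 5′ to 3′ on the strand of the match, and the plus strand points towards the telomere. The first set holds the 10 motif sites that also had a peak in every RAD21 and SMC1 list, and shows what the shared sites look like.
Site 202, minus strand, chr2:74964530-74964558: aggagCCTCCAGCAGGGGGCACCCttttg
Site 292, minus strand, chr2:75055356-75055384: gtattTGGCCACTAGGTGGCACTGttggt
Site 375, minus strand, chr2:75138082-75138110: cagggTGTCCACTAGGGCGCGCTGtgaga
Site 549, minus strand, chr2:75312426-75312454: tgcgaTAGCCGCTGGATGGCACTGttgca
Site 826, minus strand, chr2:75588769-75588797: acttcTTACCTCTGGGTGGCGCTGttcaa
Site 827, minus strand, chr2:75590404-75590432: gatcgTGTCCACTAGGTGGCGCGCatggg
Site 843, plus strand, chr2:75605877-75605905: cactaCTACCACTAGCTGGCGCCAaagct
Site 1018, minus strand, chr2:75781326-75781354: aattgTCTCCTCTAGATGGCAATAgaggt
Site 1023, plus strand, chr2:75786271-75786299: cgttgTGTCCACTAGGAGGCACTGtagca
Site 1121, plus strand, chr2:75883719-75883747: gacacCTACCAGCAGGGGTCACTGtagtg

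Of these 10 sites, 7 had the motif on the minus strand, which points towards the HoxD cluster. The exceptions were sites 843, 1023 and 1121. Match scores ran from 13.1 bits at site 1018 to 23.4 bits at site 292, with 6.37 bits needed to pass. The second set holds the other 6 motif sites with CTCF in all 7 lists, which lacked a peak in at least 1 cohesin list. They are shown to compare their motifs with the first set.
Site 388, minus strand, chr2:75151164-75151192: cttctTCACCACCAGGTGGCGCCCtttgt
Site 390, minus strand, chr2:75152683-75152711: gcctcAGTCCACTAGAGGGCGCTTtccca
Site 753, plus strand, chr2:75515499-75515527: gtccaCAGCCACCAGGTGCTTGGAcctct
Site 840, minus strand, chr2:75603316-75603344: tcagaCGAACAGCAGGGGGAGCGCatact
Site 1029, minus strand, chr2:75791750-75791778: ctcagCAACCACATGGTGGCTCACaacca
Site 1117, minus strand, chr2:75879982-75880010: ctctgCAACCACATGGTGGCACTAtggat

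The second set was not separated from the first by motif score. Site 388 scored 23.2 bits, while site 753, with the weakest match, scored 6.65 bits, and the ranges of the sets overlap. The score also did not rank the sites by strength. Site 843, the strongest CTCF site of the stretch, scored 14.5 bits, below the 23.4 bits of site 292 and the 21 bits of site 202. Site 1029, of which 78.0% was soft-masked repeat sequence, scored 8.11 bits, as did the mostly soft-masked sites 909, 910 and 927. Site 1117, with 15.9% soft-masked, scored 13.8 bits. In the first set the core ACTAGGTGGC stood at sites 292 and 827, and sites 1029 and 1117 shared AACCACATGGTGGC.

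**Figure D1:**
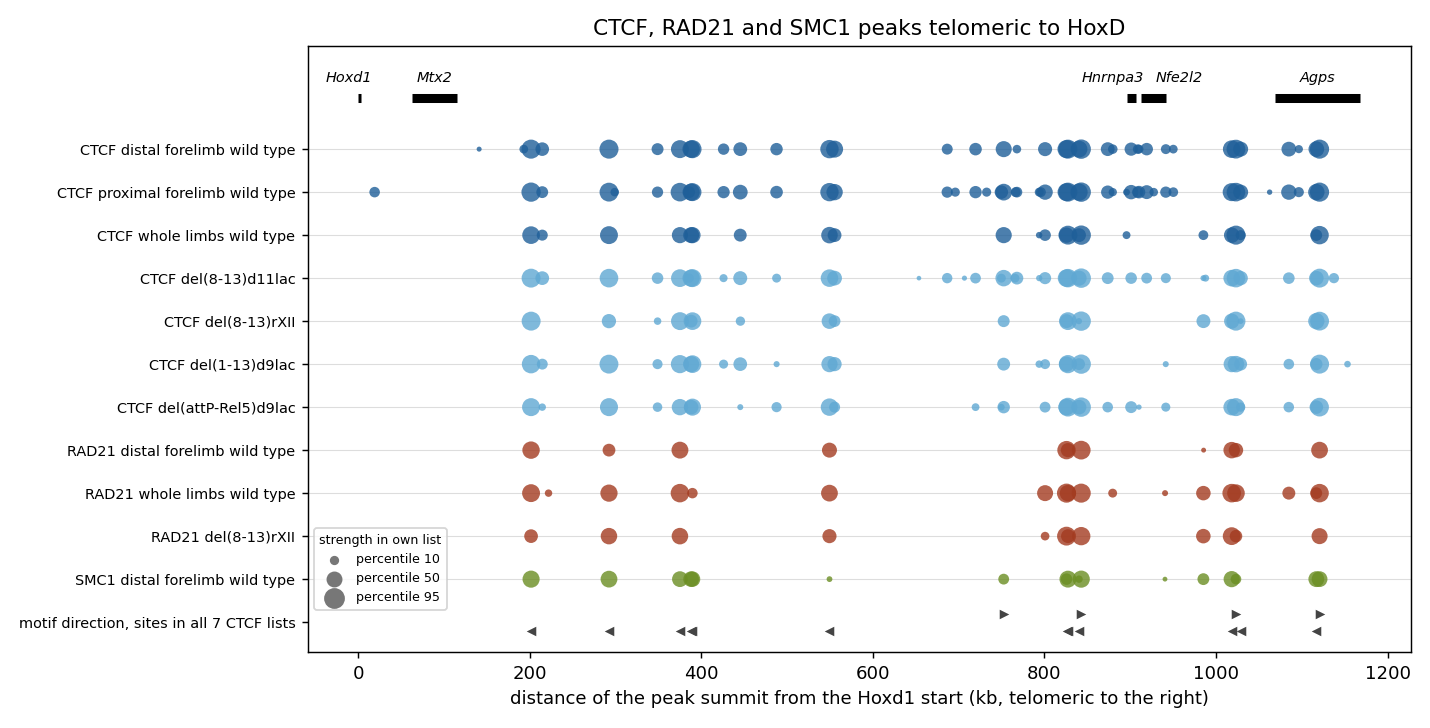
Peak summits of the 11 lists (rows) along the stretch, in kb from the Hoxd1 start, with the 5 genes above; the dot area grows with the percentile of −log10 q within the peak's own list. The bottom row gives the motif direction at the 16 motif sites called in all 7 CTCF lists, right-pointing for the plus strand. No dot lies over Hoxd1 or Mtx2, and the large dots line up across lists in the same few columns.

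CTCF was called at 57 of the 59 sites, at 18 of them in all 7 lists and at 20 in all 3 wild-type lists. At 15 sites it was in wild-type lists alone and at 6 in mutant lists alone. Its −log10 q was at most 7.51 at the former and 9.56 at the latter, so the strong sites were all called in both kinds of list. These counts were not made over the 105994 sites of the series, so none is read as particular to the stretch. Of the 23 whole-limb CTCF peaks of the stretch, 17 overlapped a peak in every other CTCF list, against 28633 of 43533 in the genome.

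No list had a peak within 10 kb of the starts of Hoxd1 or Mtx2. By name del(1-13) removes Hoxd1, so the list of that allele could show no peak at its start. Whether del(attP-Rel5) keeps Hoxd1 is not given. In the whole-limb CTCF list the space around Hoxd1 ran from the end of the site in the Hoxd3 and Hoxd4 introns (74716372) to the start of site 202 (74964306), which is 248 kb. Of 43512 spaces between neighbouring peaks of that list, 4.21% were as long, and the median was 25.7 kb. The 4 cohesin lists, pooled, left the same space, 248 kb, and 4.76% of 38837 such spaces were as long. The forelimb CTCF lists had 3 weak peaks in it. Proximal forelimb had site 19 (−log10 q 6.41, percentile 25.5 of its list), between Hoxd1 and Mtx2, and distal forelimb had sites 141 (1.90) and 193 (5.03), telomeric to Mtx2. Each was called in 1 list alone. In the del(1-13)d9lac list the last CTCF peak on the cluster side ended at 74697898, and in that of del(attP-Rel5)d9lac at 74698137. Both peaks overlap the start of Hoxd9. The first lies inside the span that del(1-13) gives as removed. Neither list had a peak at the site in the Hoxd3 and Hoxd4 introns, which every other CTCF list had. Both alleles also carry d9lac in their names, and the source of the Hoxd9 peaks was not tested. The spaces that begin at these peaks were both 266 kb in reference coordinates, which count DNA that an allele lacks.

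Over the genome, a whole-limb CTCF peak lay within 10 kb of the start of 49.5% of 21938 protein-coding genes, and a whole-limb RAD21 peak near 38.7%. Of the 5 genes, Hnrnpa3 alone had such a CTCF peak and Nfe2l2 alone such a RAD21 peak. Over all 11 lists the same distance held 2 sites at Hnrnpa3, 3 at Nfe2l2 and 1 at Agps. The non-member genes Mir10b, Haglr, Gm28230 and Ttc30b, whose starts also lie in the stretch, had none. Other non-members had some, such as E030042O20Rik with 3 sites and 2600014E21Rik with 2. The body of Agps held 6 sites, 3 of them with cohesin, that of Nfe2l2 held 4 sites, 1 with cohesin, and that of Hnrnpa3 held 1 without. No site lay in Hoxd1 or Mtx2.

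The first strong site telomeric to Mtx2 was site 202, at 74964222 to 74964832, intergenic and 138736 bp past the Mtx2 start. Its CTCF −log10 q was 209.7 in distal, 232 in proximal and 51.0 in whole limb, and in the alleles it was 190.0, 21.7, 62.1 and 72.6. In each CTCF list it stood above percentile 80, from 81.4 in whole limb to 97.9 in proximal forelimb. RAD21 was 31.1 in distal forelimb, 65.4 in whole limb and 13.1 in del(8-13)rXII, and SMC1 was 21.8. Its neighbour site 215 had CTCF in 6 lists, from 5.02 to 26.8, none in del(8-13)rXII, and no cohesin peak.

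Site 292, at 75055089 to 75055613, lay in the gene-poor stretch 229558 bp past the Mtx2 start. CTCF was 207 in distal, 185 in proximal and 55.9 in whole limb, and 170.5, 7.30, 75.9 and 73.4 in the alleles. The low value was that of the del(8-13)rXII list, where site 292 was at percentile 51.3, against 83.9 to 95.8 in the other 6 CTCF lists. RAD21 in the same allele was not low, at 23.7 (percentile 70.3), against 48.5 (77.2) in whole limb and 10.9 (40.1) in distal forelimb. These percentiles are within lists of unlike length. By rank among the sites shared by every cohesin list, RAD21 at site 292 was higher in the allele, at percentile 62.6. That rank was 39.8 in whole limb and 25.3 in distal forelimb. Of the shared sites, 10.3% shifted as far between the allele and whole limb. SMC1 was 20.2.

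Site 375, at 75137868 to 75138415, lay between the starts of the divergent lincRNA genes Gm13652 and 2600014E21Rik, 301 bp from the first and 744 bp from the second. It held 31 CpG, the most of any site in the stretch. CTCF was 132 in distal, 165 in proximal and 32.2 in whole limb, and 125, 15.5, 55.1 and 44.2 in the alleles. RAD21 was 26.8 in distal, 87.8 in whole limb and 24.1 in del(8-13)rXII, and SMC1 was 16.0. So all 11 lists had a peak at these lincRNA starts, whereas none had one at the starts of Hoxd1 and Mtx2.

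The next sites lay within introns of 2600014E21Rik. Sites 388 and 390, 1.53 kb apart, both had minus-strand motifs and CTCF in all 7 lists. At site 388 CTCF was 104 in distal, 88.2 in proximal, 29.8 in whole limb and 107, 5.63, 28.6 and 25.2 in the alleles. At site 390 it was 142, 126 and 32.7 in wild type and 135, 14.6, 46.3 and 54.5 in the alleles, higher than site 388 in each list. Both had SMC1 (15.5 and 15.1), and neither had RAD21 in distal forelimb or del(8-13)rXII. Whole-limb RAD21 was called at site 390 alone, at 4.85, although the whole-limb CTCF values of the pair were close. Site 445 had CTCF in all 7 lists, from 3.40 to 29.3, with no motif and no cohesin. Its del(8-13)rXII peak lay beside the whole-limb peak without overlapping it.

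Sites 549 and 555, 5.91 kb apart, were an unlike pair. Site 549, at 75312175 to 75312755, had a minus-strand motif, CTCF of 153, 147 and 35.9 in wild type and 116, 9.35, 29.4 and 60.8 in the alleles, and a peak in all 4 cohesin lists. Its RAD21 was 17.2, 39.9 and 14.3 in distal, whole limb and del(8-13)rXII, while its SMC1 was only 2.45, at percentile 3.92 of that list. Site 555, just past the end of 2600014E21Rik, had CTCF of 87.0, 55.7 and 15.7 in wild type and 39.9, 4.67, 16.4 and 9.91 in the alleles. It had neither a motif nor a cohesin peak. Over the genome 9.31% of the 28633 sites shared by all 7 lists had no motif.

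From site 555 to site 753 no site was called in all 7 CTCF lists, a distance of 197 kb and the longest between such neighbours in the stretch. Of the 17 neighbouring pairs, 7 lay within 10 kb of each other, and the genome share of such pairs was not computed. Site 753, at 75515243 to 75515835, had CTCF of 56.5, 68.9 and 31.9 in wild type and 78.9, 4.85, 11.8 and 14 in the alleles, with SMC1 at 6.27 and no RAD21. Site 794 had weak CTCF of 4.58 in proximal forelimb, 2.88 in whole limb, 4.33 in del(8-13)d11lac and 3.92 in del(1-13)d9lac. Site 801 had CTCF in 6 lists, from 6.15 to 33.3, and RAD21 of 28.8 in whole limb and 5.72 in del(8-13)rXII.

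The densest group of strong sites, from site 826 to site 843, lay upstream of Hnrnpa3. Sites 826 and 827, 1.65 kb apart with minus-strand motifs, ordered the proteins differently. CTCF was lower at site 826 in all 7 lists. It was 138, 125 and 24.4 in wild type and 117, 6.82, 22.0 and 45.4 in the alleles at site 826, against 199.8, 197, 84.7 and 162, 15, 55.7 and 97.5 at site 827. RAD21 was higher at site 826 in all 3 lists, at 43.6 in distal, 123 in whole limb and 53.1 in del(8-13)rXII, against 14.4, 33.3 and 13.4 at site 827. SMC1 followed CTCF and not RAD21, with 7.03 at site 826 and 20.9 at site 827. These orders are within lists, where depth is shared. Whole-limb RAD21 at site 826 was the highest of the stretch.

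Site 843, at 75605521 to 75606176, was the strongest CTCF site of the stretch in each of the 7 lists. CTCF was 259 in distal, 257 in proximal and 125 in whole limb, and 288, 31.8, 108 and 148 in the alleles. Its percentile was 98.7 or above in every CTCF list. The fold enrichment over background, a ratio given by the authors, was 14.3, 14.2 and 20.6 in wild type. RAD21 was 51.0 in distal, 120 in whole limb and 40.7 in del(8-13)rXII, and SMC1 was 22.0, the highest of the stretch. Its motif was on the plus strand, pointing away from the cluster, while site 840, 2.56 kb nearer to the cluster, had a minus-strand motif. At site 840 CTCF was 80.4, 93.2 and 15.8 in wild type and 46.7, 2.11, 9.43 and 26.8 in the alleles, and SMC1 alone of the cohesin lists was called, at 3.53.

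Hnrnpa3 and Nfe2l2 had no site with CTCF in all 7 lists. Site 896 lay 534 bp before the Hnrnpa3 start, at 75658562 to 75658809, with CTCF of 2.94 in proximal forelimb and 3.87 in whole limb and in no allele. Site 901, in an intron of Hnrnpa3, had CTCF of 17.1 in distal, 22.2 in proximal, 13.4 in del(8-13)d11lac and also 12.3 in del(attP-Rel5)d9lac. Neither had cohesin. In Nfe2l2, the intronic site 919 had CTCF of 13.2 in distal, 18.1 in proximal and 11.1 in del(8-13)d11lac, also without cohesin. At the Nfe2l2 start, site 942, in a UTR 120 bp inside the gene, had CTCF of 6.56 in distal and 7.65 in proximal forelimb and of 9.18, 2.92 and 6.65 in the alleles other than del(8-13)rXII. Within the same gene, 1004 bp from the start, site 941 had whole-limb RAD21 of 2.09 and SMC1 of 1.68 and no CTCF in any list. Both sites were rich in G and C, at 66.3% for site 941 and 65.3% for site 942. Site 950, upstream of Nfe2l2, had CTCF of 5.03 and 5.23 in distal and proximal forelimb.

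Site 985, at 75747858 to 75748833, was the one site of the stretch with a peak in all 4 cohesin lists and CTCF in fewer than 7 lists. It was intergenic, 43681 bp upstream of the Nfe2l2 start, with no motif and no soft-masked repeat bases. CTCF was called in 3 B6CBAF1 lists, at 5.85 in whole limb, 3.79 in the del(8-13)d11lac list and 6.80 in that of del(8-13)rXII, and in neither CD1 list. RAD21 was 2.22 in distal, 15.9 in whole limb and 15.5 in del(8-13)rXII, and SMC1 was 7.38. In whole limb the site was thus at percentile 21.4 for CTCF and 53.2 for RAD21. Besides its strongest peak, del(8-13)rXII had 2 further CTCF peaks here, both at 2.91.

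The last group led into Agps. Sites 1018, in an exon of the non-coding gene Gm13657, and 1023, intergenic, were 4.97 kb apart, and their motifs pointed towards the cluster and away from it in that order. At site 1018 CTCF was 113, 129 and 25.9 in wild type and 82.8, 8.64, 29.2 and 47.5 in the alleles, and at site 1023 it was 186, 166 and 92.4 and 167, 22.7, 32.1 and 71.9. RAD21 was higher at site 1018, at 24.2, 90.7 and 34 in distal, whole limb and del(8-13)rXII, against 15.3, 57.9 and 10.6 at site 1023. SMC1 was 17.7 at site 1018 and 6.01 at site 1023, so here SMC1 and RAD21 had the same order and CTCF the opposite one. Site 1029 had CTCF in all 7 lists, from 1.80 to 34.3, and no cohesin.

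Inside Agps the strong site was site 1121, at 75883470 to 75884008, in an intron 51577 bp past the start. CTCF was 212, 215 and 68.1 in wild type and 193, 20.3, 80.6 and 93.6 in the alleles. RAD21 was 25.8 in distal, 87.2 in whole limb and 21.3 in del(8-13)rXII, and SMC1 was 16.1. Site 1117, 3.76 kb before it and also intronic, had a minus-strand motif against the plus strand of site 1121. Its CTCF was 47.1, 57.2 and 8.80 in wild type and 37.1, 10.8, 10.1 and 19 in the alleles. SMC1 was as high there as at site 1121, at 16.3, while whole-limb RAD21 was 6.52 and no RAD21 was called in the other lists. Site 1085, also in an intron, had CTCF of 30.9 and 33.6 in the forelimb lists, from 6.98 to 13.7 in 3 alleles, and whole-limb RAD21 of 9.28. Site 1063, 6643 bp before Agps, had proximal CTCF of 2.07 alone.

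Cohesin lay at 21 of the 59 sites, and at 11 of them in all 4 lists. Of the 21 sites, 15 had CTCF in all 7 lists, and sites 222 and 941 had CTCF in none. Site 222 had whole-limb RAD21 of 2.74 alone. These counts were not made over the 105994 sites of the series. Of the 18 whole-limb RAD21 peaks of the stretch, 11 overlapped a peak in every other cohesin list, against 12317 of 33707 in the genome. Of the 23 whole-limb CTCF peaks, 14 overlapped a RAD21 peak of the same tissue (60.9%, interval 40.8 to 77.8), against 51.5% of 43533 peaks of the genome. Of the 12 peaks with −log10 q of 25 or more, 10 had RAD21, against 83.8% of such peaks in the genome, and the other two were sites 388 and 753. The share of CTCF peaks with RAD21 in the stretch was thus near that of the genome.

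**Figure D2:**
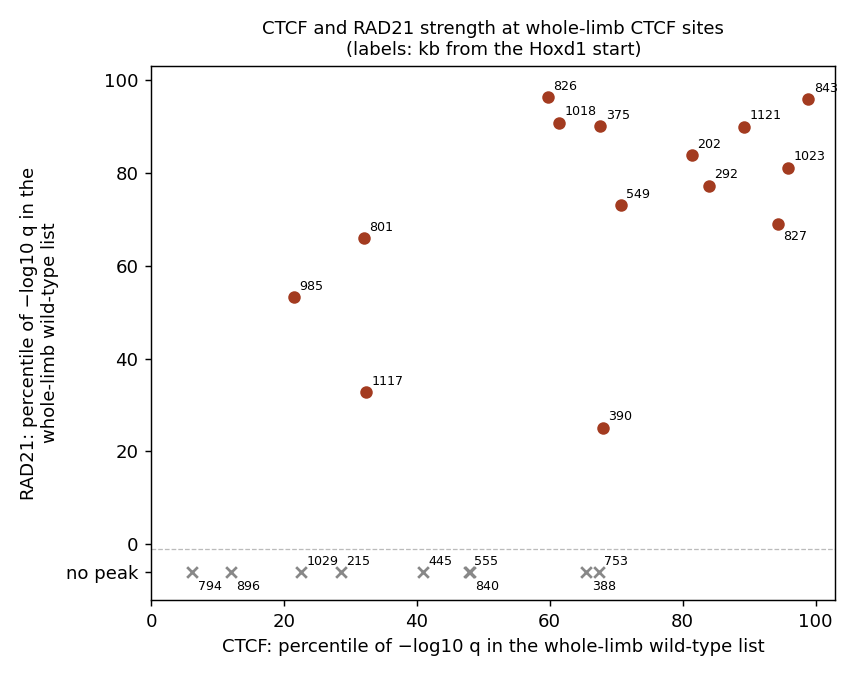
Percentile of RAD21 against percentile of CTCF, each within its own whole-limb wild-type list, at the 23 whole-limb CTCF peaks of the stretch; crosses have no RAD21 peak and labels give the kb from the Hoxd1 start. Sites 826 and 1018 sit high for RAD21 at about percentile 60 for CTCF, and sites 388 and 753, at percentiles 65.5 and 67.3 for CTCF, are among the crosses.

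In distal forelimb 10 of 38 CTCF peaks overlapped RAD21 (26.3%, 15 to 42.0), against 22.8% of 69495 in the genome, and 15 overlapped SMC1 (39.5%, 25.6 to 55.3), against 31.0%. SMC1 was called at 17 sites and distal RAD21 at 11, all of which had SMC1. The 6 sites with SMC1 and no distal RAD21 were 388, 390, 753, 840, 941 and 1117. The SMC1 list is longer than the distal RAD21 list, with 23185 against 16498 peaks. Ranks among the 12317 sites shared by all 4 cohesin lists compare the same sites in each list. By these ranks site 826 was at percentile 85.2 to 92.3 in the RAD21 lists and 11.7 for SMC1, and 1.13% of the shared sites had as large a shift between SMC1 and whole-limb RAD21. The ranges over the 4 lists had a median of 36.7 percentile points at the 11 sites and of 31.3 over all shared sites.

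**Figure D3:**
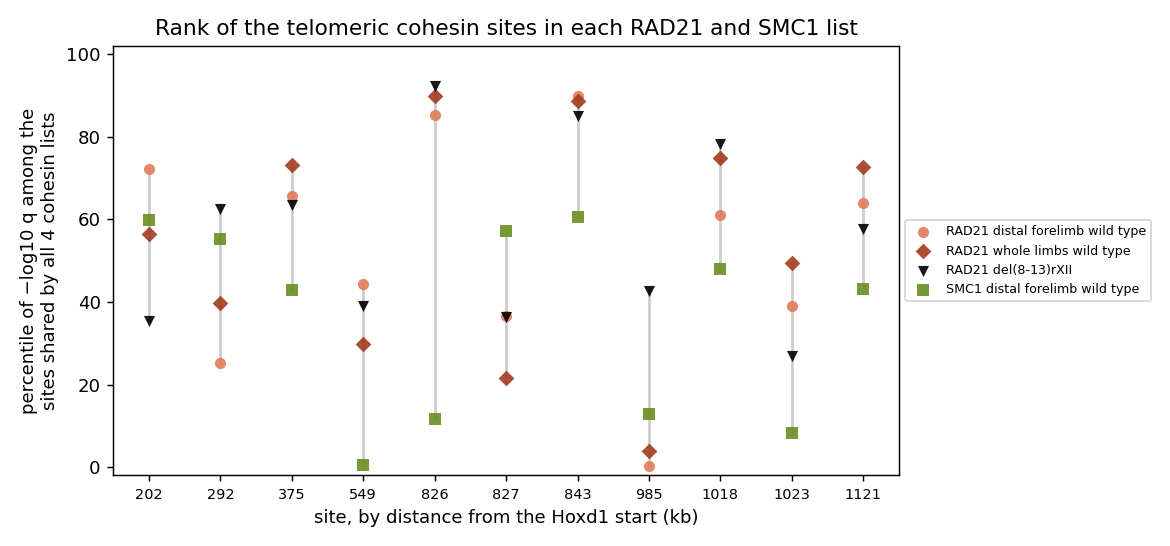
Percentile of −log10 q among the 12317 sites shared by all 4 cohesin lists (vertical axis) at the 11 such sites of the stretch (horizontal axis, kb from the Hoxd1 start), with 1 symbol per list and a line over the range. At site 826 the RAD21 lists lie between 85.2 and 92.3 and SMC1 at 11.7, and at site 985 del(8-13)rXII lies at 42.7 and wild-type RAD21 at 0.248 and 3.88.

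Of the 23 whole-limb peaks, 13 had a minus-strand motif (56.5%, 36.8 to 74.4), against 39.7% of 43533 in the genome, and 5 a plus-strand motif, at sites 215, 753, 843, 1023 and 1121. The genome share of minus-strand motifs lies inside the interval of the stretch. Over the genome the strands were even, with 17300 minus and 17329 plus. RAD21 lay at 10 of the 13 minus-strand and 3 of the 5 plus-strand peaks. In the stretch of the same length on the centromeric side of Evx2, 8 of 27 whole-limb peaks had a minus-strand and 15 a plus-strand motif.

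The whole-limb RAD21 summit lay mostly on the 3′ side of the motif. Of 20101 whole-limb CTCF peaks with a motif and RAD21, 87.6% had the RAD21 summit on that side of the motif centre, by a median of 20 bp. In the stretch 12 of 13 did, with a median of 19 bp and the summit of site 843 level with the centre. The largest offsets were 58.0 bp at site 390, 44.0 bp at site 827 and 42.0 bp at site 549. RAD21 of del(8-13)rXII lay on that side at 11 of 11 sites. In distal forelimb RAD21 did at 7 of 10, was level at site 1023, and lay on the 5′ side at sites 292 and 375. SMC1 lay on the 3′ side at 7 of 12 sites and on the 5′ side at 5, namely 202, 292, 375, 390 and 826, with a median of 2.5 bp towards the 3′ side. At minus-strand sites the 3′ side faces the HoxD cluster.

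**Figure D4:**
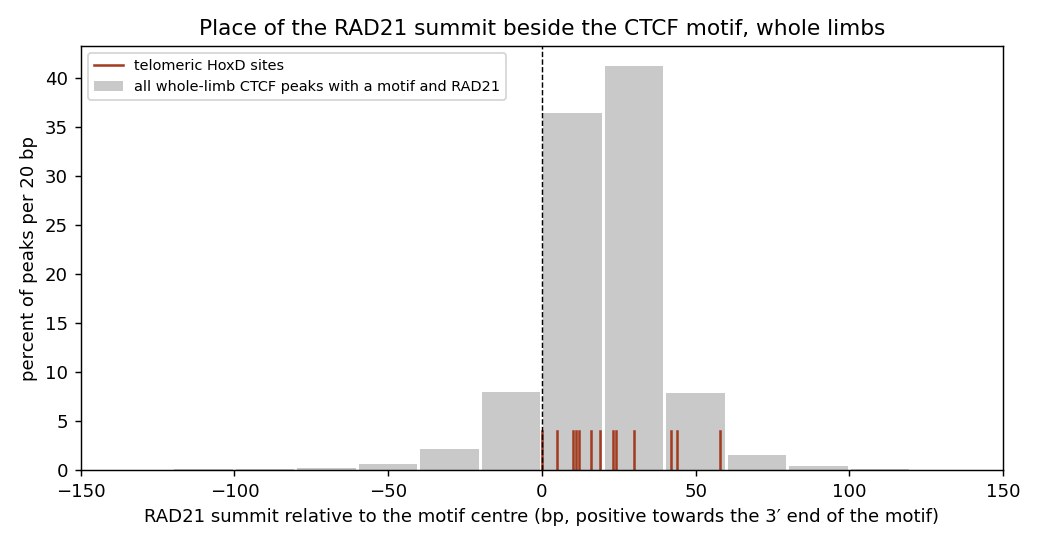
Distance in bp of the whole-limb RAD21 summit from the centre of the CTCF motif, positive towards the 3′ end; grey bars give the percent of 20101 peaks of the genome per 20 bp, and red ticks the 13 sites of the stretch. The ticks fall between 0 and 58.0 bp, where most of the grey bars stand.

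In the deletion alleles most whole-limb wild-type CTCF peaks of the stretch had a peak. They numbered 22 of 23 in del(8-13)d11lac (95.7%, 79.0 to 99.2), against 91.8% in the genome. In del(8-13)rXII there were 18 (78.3%, 58.1 to 90.3), against 70.3%. In del(1-13)d9lac there were 21 (91.3%, 73.2 to 97.6), against 80.0%, while del(attP-Rel5)d9lac had 20 (87.0%, 67.9 to 95.5), against 82.8%. Every genome share lies inside the interval of the stretch. All 12 peaks with −log10 q of 25 or more had a peak in each allele, as did at least 99.1% of such peaks in the genome. The peaks without one were weak: site 896 in all 4 alleles, site 985 in both d9lac alleles, site 794 in del(attP-Rel5)d9lac and in del(8-13)rXII, and sites 215, 445 and 801 in del(8-13)rXII. Whole-limb CTCF was 12.1 at site 445 and at most 8.73 at the others.

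CTCF peaks of an allele that overlapped no wild-type CTCF peak were few. They numbered 5 of 40 in del(8-13)d11lac, where the genome share was 7.08%, and 2 of 22 in del(8-13)rXII, where it was 4.62%. There was 1 of 27 in del(1-13)d9lac (3.70%, 0.657 to 18.3), against 5.19%, while del(attP-Rel5)d9lac had 0 of 29 (upper limit 11.7%), against 2.94%. Each genome share lies inside the interval of the stretch. Those of del(8-13)d11lac were sites 654, 707, 766, 988 and 1137, with −log10 q from 2.17 to 9.56. Sites 1137 and 1153 lie in introns of Agps, and site 1153 was the one of del(1-13)d9lac, at 3.14. The pair of del(8-13)rXII flanked its strongest peak at site 985. None of the 8 reached a −log10 q of 10.

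Ranks among the 28633 sites shared by all 7 CTCF lists allow the lists to be set side by side. Over the 17 such sites of the stretch the range over lists had a median of 25.6 percentile points, and over all shared sites 25.7. Site 843 was the steadiest, between 97.6 and 99.5 in all lists. A few sites had 1 list apart from the rest. Site 1023 was at 57.2 in del(1-13)d9lac and at 77.1 to 94.8 in the other 6 lists, and 1.12% of the shared sites shifted as far between that allele and whole limb. Site 1117 was at 60.8 in del(8-13)rXII and at 8.77 to 23.6 elsewhere (1.78%), and site 292 at 40.1 in del(8-13)rXII and at 75.6 to 91.6 elsewhere (8.56%). At site 753 the list apart was whole-limb wild type, at 50.6, with the other lists between 13.6 in del(attP-Rel5)d9lac and 36.8 in del(8-13)d11lac. That site therefore ranked lower in each allele than in whole limb, but also lower in wild-type distal (21.3) and proximal (30.9) forelimb.

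**Figure D5:**
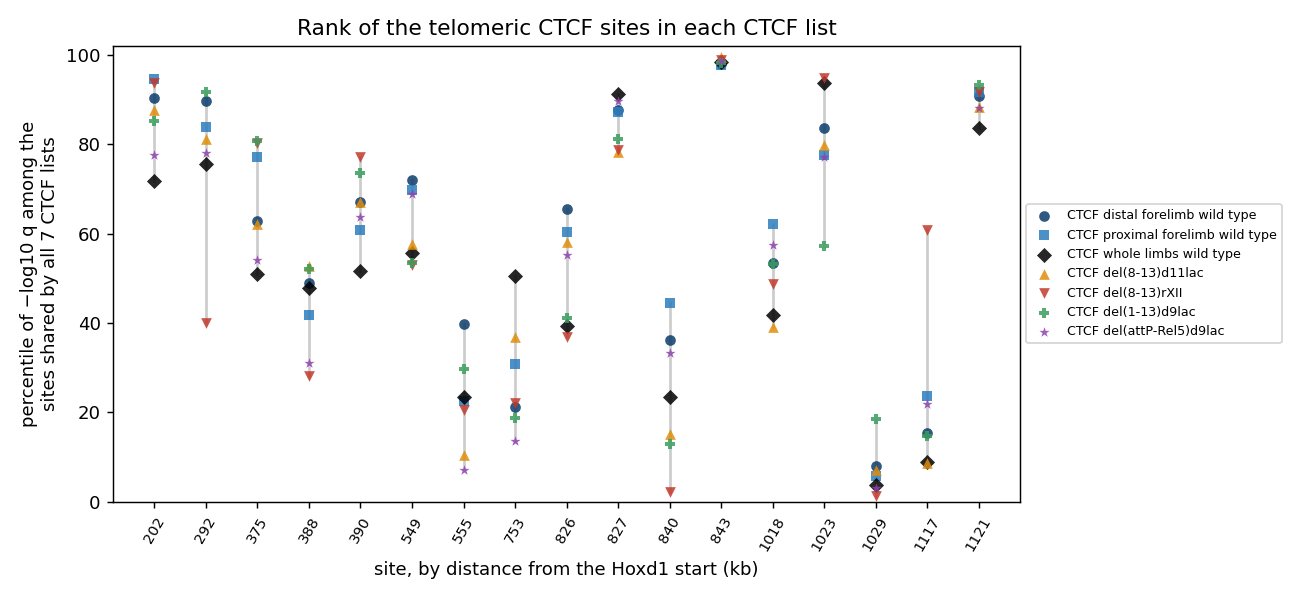
Percentile of −log10 q among the 28633 sites shared by all 7 CTCF lists (vertical axis) at the 17 such sites of the stretch (horizontal axis, kb from the Hoxd1 start), with 1 symbol per list and a line over the range. Site 843 lies above 97 in every list, and the single low symbol at site 292 and high symbol at site 1117 are both del(8-13)rXII.

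RAD21 in del(8-13)rXII was called at 12 of the 18 whole-limb RAD21 peaks (66.7%, 43.7 to 83.7), against 45.2% in the genome. The 12 had whole-limb RAD21 from 15.9 to 123. The 6 without a peak were the weakest of the 18, from 2.09 to 9.28, at sites 222, 390, 880, 941, 1085 and 1117. No RAD21 peak of the allele lay outside wild-type cohesin peaks (0 of 12, upper limit of the interval 24.2%, against 3.51% in the genome). By shared rank site 985 was at 42.7 in the allele and 3.88 in whole limb, a shift that 1.93% of shared sites reached. Within its own list the site was at percentile 53.5 in the allele, with 15927 peaks, and at 53.2 in whole limb, with 33707 peaks.

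The forelimb parts were alike at the stronger sites. Of 38 distal CTCF peaks, 36 overlapped a proximal peak (94.7%, 82.7 to 98.5), against 82.6% in the genome. The other peaks were sites 141 and 193. The genome share lies just below that interval. Among peaks with −log10 q of 10 or more, the shares were 92.6% in the stretch and 91.4% in the genome. Proximal forelimb had 48 peaks, of which 8 sites were in no other CTCF list, all weak. The highest of these was site 19, at 6.41. A further 4 sites were called in both forelimb lists and no other CTCF list, namely 880, 909, 950 and 1097, with values from 3.98 to 7.51. Such counts were not made over the whole series. Site 880, which lies wholly in soft-masked repeat sequence, also had whole-limb RAD21 of 3.56.

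The remaining sites lay below the median strength of every list that held them and lacked whole-limb CTCF. Site 349 had CTCF in the other 6 lists, from 2.54 to 13.4, and site 488 in 5, from 2.97 to 12.7. Sites 426, 720 and 874 had it in 4 lists each, with highest values of 10.2, 13.3 and 21.1. Sites 687, 750, 768, 910 and 919 had it in 3 lists each, and site 386 in 2. At site 768 CTCF was at percentile 40.2 of the del(8-13)d11lac list, 15.1 of the distal and 26.5 of the proximal list. These are percentiles within lists of unlike length, and the difference was not tested. None of these 11 sites had a cohesin peak.

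The centromeric stretch of the same length had 65 sites, 58 of them with CTCF. It had 19 sites with CTCF in all 7 lists, against 18 on the telomeric side, and 8 with cohesin in all 4 lists, against 11. Of its 27 whole-limb CTCF peaks, 15 had RAD21. CTCF peaks were called at 23, 19, 21 and 22 of these 27 in the alleles, and RAD21 at 11 of 17 in del(8-13)rXII. No difference between the sides was tested, since each is 1 stretch.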

How the data were processed

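CTCF, RAD21 and SMC1 were profiled by ChIP-seq, or ChIPmentation for CTCF in del(8-13)rXII, with 1 library per group. Per the submitters' processing notes, the tools were cutadapt, Bowtie2 and MACS2 and the build mm10, and no version is named. The deposited narrowPeak lists hold a score, a whole number that equals 10 times the −log10 q. The fold enrichment is a ratio computed by the authors. They also gave each summit a −log10 p and a −log10 q, and the lowest deposited −log10 q corresponds to a q of 0.05. Read depth is not in these files.

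Rows of 1 region with several summits were merged, with the strongest summit kept, and chromosomes 1 to 19, X and Y were used (Python 3.11.15, numpy 2.4.6). Coordinates are 1-based, and no peak passed its chromosome's end on GRCm38.p6. An overlap of 1 bp or more counted as shared. A 19 bp CTCF matrix, with consensus NNNCCACNAGNGGGCGCNN, was learned from the 2000 strongest whole-limb summits outside the stretch. The best match on either strand within 50 bp of a summit was kept at 6.37 bits or more, which 5% of windows 2 kb away reached. By that rule 79.5% of 43533 whole-limb peaks had a motif. The plus strand is the one with more G than C. The scripts were tested on simulated data.

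The members and lists were chosen with earlier results of these data known. Named were the 5 genes with every site within 10 kb of their starts, each site with whole-limb CTCF or any cohesin, and other sites called in at least 2 lists or in a mutant list alone. Sequences were those of motif sites with CTCF in all 7 lists. Other sites were named where singled out after their values were seen.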

Additional observations from a re-analysis of the deposited data

How the results depend on the processing

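A cutoff on −log10 q and a cap on list length moved results, and by construction both leave fewer peaks. Where peaks needed a −log10 q of 10 or more, 7 of 16 whole-limb CTCF peaks had a peak in del(8-13)rXII (43.75%), against 18 of 23 as deposited. The genome share was then 43.8%, against 70.3% as deposited. RAD21 of del(8-13)rXII was called at 11 of 12 whole-limb RAD21 peaks under this cutoff (91.7%), against 51.8% in the genome. Of 27 distal CTCF peaks, 10 had RAD21 (37.0%, against 21.8% in the genome) and 10 SMC1 (37.0%, against 26.3%). CTCF sites fell from 57 to 31. New CTCF peaks then numbered 1 of 27 in del(8-13)d11lac, against 5.41% in the genome, and 0 both in del(1-13)d9lac (0.23%) and in del(8-13)rXII (0.804%). With the 15000 strongest peaks of each list, whole-limb CTCF peaks with a peak numbered 8 of 10 in del(8-13)rXII and 9 of 10 in each of the other 3 alleles. New CTCF peaks numbered 1 of 10 in del(8-13)rXII, against 13.3% in the genome, and 0 in del(8-13)d11lac (3.94%) as well as del(1-13)d9lac (5.21%). New RAD21 peaks numbered 1 of 12, against 6.71%, and RAD21 of del(8-13)rXII was called at 11 of 11 whole-limb RAD21 peaks, against 87.6%. In that setting 8 of 10 whole-limb CTCF peaks had RAD21, against 67.3% in the genome. Of 12 distal CTCF peaks 10 had RAD21 (83.3%, against 26.3% as deposited), 9 SMC1 (75%, against 39.5%) and 11 proximal CTCF. The genome shares of distal CTCF peaks rose too, to 68.9% with RAD21, 72.2% with SMC1 and 92.6% with proximal CTCF. CTCF sites numbered 14, and 6 of 10 whole-limb peaks had a minus-strand motif, against 47.7% in the genome. Overlap of at least 50%, summits within 200 bp, peaks that only touch the stretch, a motif search within 100 bp and the score that 1% of control windows pass each kept the counts they apply to within 1.5 times. Chosen after seeing the data, leaving out the ChIPmentation list gave 20 sites with CTCF in every list, against 18. No paired analysis was possible because each group has 1 library and the groups share no more than 1 replicate number. Depth is unknown, so a site with no peak in a shorter list is not shown to lack the protein.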
